A study of Danio rerio with 6 samples.

Results

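The genes described here are the 6 that encode the chemokine receptors Cxcr4a and Cxcr4b, their ligands Cxcl12a and Cxcl12b, and the apelin receptors Aplnra and Aplnrb. They were taken by gene name from the 31953 genes of the deposited files, as a set of signals and receptors known to guide migrating deep cells of the zebrafish embryo. In the files they are cxcr4a (ENSDARG00000057633), cxcr4b (ENSDARG00000041959), cxcl12a (ENSDARG00000037116), cxcl12b (ENSDARG00000055100), aplnra (ENSDARG00000002172) and aplnrb (ENSDARG00000036670). All 6 reached the minimum level for testing, a normalised value of 10 in at least 3 libraries.

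Cxcl12 is a secreted chemokine that attracts cells carrying Cxcr4, a receptor that signals through inhibitory G proteins. In zebrafish, Cxcr4a on endoderm cells responds to Cxcl12b made by mesoderm, whereas Cxcr4b on primordial germ cells follows Cxcl12a. The apelin receptors bind Apela (also called Toddler or Elabela) during gastrulation and are needed for the internalisation of mesendoderm and for the movement of heart progenitors. The enveloping layer (EVL) is the thin outer epithelium of the early embryo and covers the deep cells in which these pathways are known to act.

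RNA was sequenced from embryos of the line Tg(krt18:krt18-GFP) at 6 hpf (hours after fertilisation), when gastrulation starts. The transgene carries a GFP-tagged keratin under krt18 sequences, and both sorted groups came from transgenic embryos. Cells of about 1500 dissociated embryos were sorted into GFP-positive cells, labelled EVL, and GFP-negative cells, labelled non-EVL, with 3 libraries each. The GFP-negative group therefore holds every cell without GFP, and no migrating cell type was sorted on its own.

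Libraries held 32.2 to 46.1 M reads assigned to genes (M, 1e6 reads). The gene listed as AC024175.4 took 30.1% to 42.7% of them. All 22 tested markers of the enveloping layer were higher in GFP-positive cells (limma, Benjamini-Hochberg adjusted p under 0.05), where 8.80% of the 15971 genes tested were higher, 0.676% were lower and 9.47% were called in either direction. The summed level of the 23 matched markers was 777710 to 2568390 normalised reads in GFP-positive and 42279 to 59994 in GFP-negative libraries, with the highest sum in GFP-positive replicate 1. These markers include krt18, the gene of the sorted transgene, so its difference is not independent of the sort. It had 621621, 251055 and 191050 normalised reads in GFP-positive replicates 1, 2 and 3. Whether its reads include the transgene was not tested. Whether each library stems from its own clutch and sort is not in the labels. The p-values therefore reflect only how these samples vary, and that variation may be technical. Levels below are normalised reads, which are reads divided by the library's size factor. They are not corrected for gene length, so levels are not compared between genes.

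Reads of all 6 genes were found in both groups, and the levels of the receptor paralogs lay in opposite directions. How far deep cells among the sorted GFP-positive cells contributed to these reads was not tested. The fitted levels of cxcr4a and aplnra were above those of GFP-negative cells by 2.23-fold and 1.58-fold, while those of cxcr4b and aplnrb were 2.47-fold and 1.87-fold lower. The ligand genes cxcl12a and cxcl12b stood 1.56-fold and 1.24-fold lower. The lowest of the 36 values, cxcr4b in GFP-positive replicate 1, rested on 508 reads. None of these single-gene differences passed the test across all genes: 0 of 6 were called by limma, with 3 at an unadjusted p under 0.05, a level reached by 23.0% of all genes tested. On the whole reads recovered from the values, edgeR also called 0, against 9.16% of genes called (8.82% higher and 0.338% lower). DESeq2 called 1, cxcr4a, against 14.6% of genes called (12.5% higher and 2.05% lower). At an unadjusted p under 0.05 edgeR had 3 of the 6 and DESeq2 4. The share of all genes at that unadjusted level was not computed for edgeR or DESeq2.

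The endoderm receptor gene cxcr4a had 6060, 17569 and 9827 normalised reads in GFP-positive replicates 1, 2 and 3, and 3136, 6631 and 4514 in GFP-negative replicates 1, 2 and 3. Replicates 2 and 3 of the GFP-positive cells were above every GFP-negative library, and GFP-positive replicate 1 lay below GFP-negative replicate 2, so the groups overlapped. The means were 11152 ± 5868 and 4760 ± 1760 (SD, n = 3 each), with a log2 fold change of 1.16 (SE 0.40, 95% interval 0.24 to 2.08; limma, adjusted p = 0.128). In DESeq2 the adjusted p was 0.0403, and without GFP-positive replicate 1 the limma log2 fold change was 1.53 (adjusted p = 0.0465). Among the 6 fits that each dropped a library, this was the only fit that called cxcr4a. The other fits gave log2 fold changes from 0.76 to 1.43 (limma, adjusted p from 0.129 to 0.270). Scaling by library size alone gave 0.85 (limma, adjusted p = 0.148). In a bulk sample, fewer cells of a type and less RNA per cell cannot be told apart.

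The germ cell receptor gene cxcr4b varied most within groups. Its level was 669, 2992 and 2814 in GFP-positive replicates 1, 2 and 3, and 1613, 8216 and 6403 in GFP-negative replicates 1, 2 and 3. Replicate 1 was the lowest library of both groups, and GFP-negative replicate 1 fell below GFP-positive replicates 2 and 3, so the groups overlapped. The highest library exceeded the lowest 4.47 times among GFP-positive and 5.09 times among GFP-negative libraries. The log2 fold change of -1.30 had an interval from -2.97 to 0.36 (SE 0.73; limma, adjusted p = 0.334). That interval includes 0. The value was -0.60 without GFP-positive replicate 1 (limma, adjusted p = 0.707) and -2.03 without GFP-negative replicate 1 (adjusted p = 0.1001).

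The apelin receptor gene aplnra had 5852, 10264 and 6708 normalised reads in GFP-positive and 5825, 5455 and 3243 in GFP-negative replicates 1, 2 and 3. The groups did not overlap, although GFP-positive replicate 1 and GFP-negative replicate 1 were nearly level. The log2 fold change was 0.66 (SE 0.28, 95% interval 0.0011 to 1.31; limma, adjusted p = 0.216). With 1 library left out it lay from 0.39 to 0.82 (limma, adjusted p from 0.183 to 0.506). With library size alone it was 0.35 (limma, adjusted p = 0.393).

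The second apelin receptor gene, aplnrb, lay in the other direction. It had 1868, 4154 and 3462 normalised reads in GFP-positive and 5690, 7118 and 4311 in GFP-negative replicates 1, 2 and 3. Every GFP-positive library was below every GFP-negative library, with GFP-positive replicate 1 the lowest. The means were 3161 ± 1173 and 5706 ± 1404 (SD, n = 3 each), and the log2 fold change was -0.90 (SE 0.31, 95% interval -1.62 to -0.18; limma, adjusted p = 0.132). With libraries scaled to their size alone, aplnrb was called lower (log2 fold change -1.21; limma, adjusted p = 0.0345). That scaling moved the median log2 fold change of all genes from -0.06 to -0.36. None of the 6 fits with 1 library left out called aplnrb. In them its log2 fold change lay from -1.14 to -0.56 (limma, adjusted p from 0.0932 to 0.364).

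**Figure D1:**
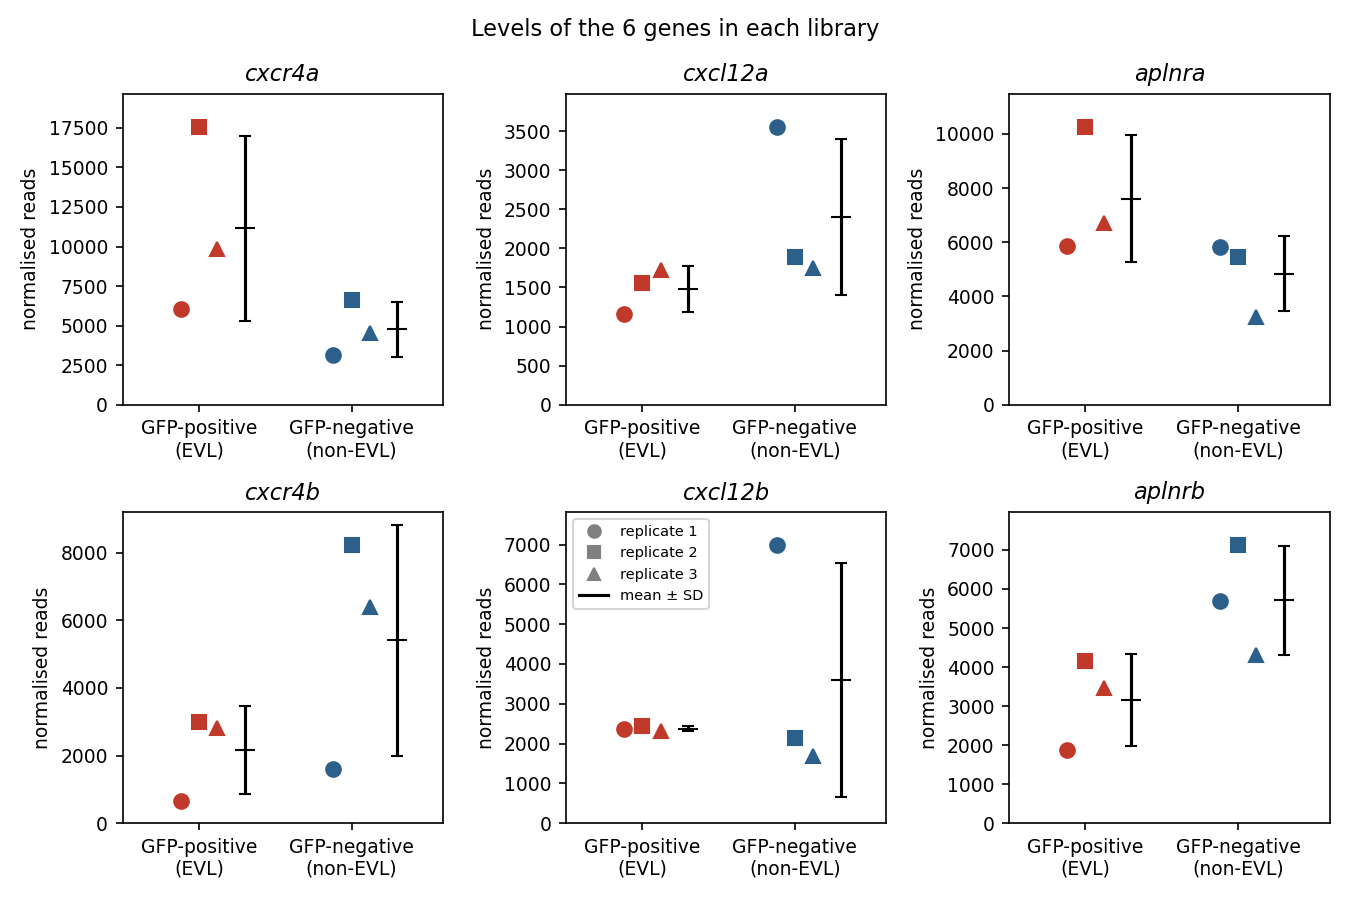
Normalised reads of each of the 6 genes (y axis, from 0) in the 3 GFP-positive (red) and 3 GFP-negative (blue) libraries, with the mean and SD of each group in black. The libraries of aplnra, aplnrb and cxcl12a do not overlap between groups, and GFP-negative replicate 1 stands high for both ligand genes, at 3556 for cxcl12a and 6982 for cxcl12b.

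The gene cxcl12b, the ligand known to act on endoderm, varied little among GFP-positive libraries. It had 2375, 2440 and 2310 normalised reads in GFP-positive replicates 1, 2 and 3, a range of 1.06 times, against 6982, 2129 and 1698 in GFP-negative replicates 1, 2 and 3. GFP-negative replicate 1 was above and the other two GFP-negative libraries were below all GFP-positive libraries. Its log2 fold change of -0.30 (SE 0.46, 95% interval -1.37 to 0.76; limma, adjusted p = 0.748) became 0.32 without GFP-negative replicate 1 (adjusted p = 0.347), so no direction can be given.

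The germ cell attractant gene cxcl12a had 1158, 1562 and 1721 normalised reads in GFP-positive and 3556, 1894 and 1754 in GFP-negative replicates 1, 2 and 3. The groups did not overlap, but GFP-positive replicate 3 and GFP-negative replicate 3 lay close together. The log2 fold change was -0.64 (SE 0.29, 95% interval -1.32 to 0.035; limma, adjusted p = 0.242), and it was -0.32 without GFP-negative replicate 1 (adjusted p = 0.436). In all, the libraries of the groups did not overlap in 3 of the 6 genes, against 30.9% of all genes tested. These were aplnra among higher genes (17.4% of all genes) and aplnrb and cxcl12a among lower genes (13.5%).

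**Figure D2:**
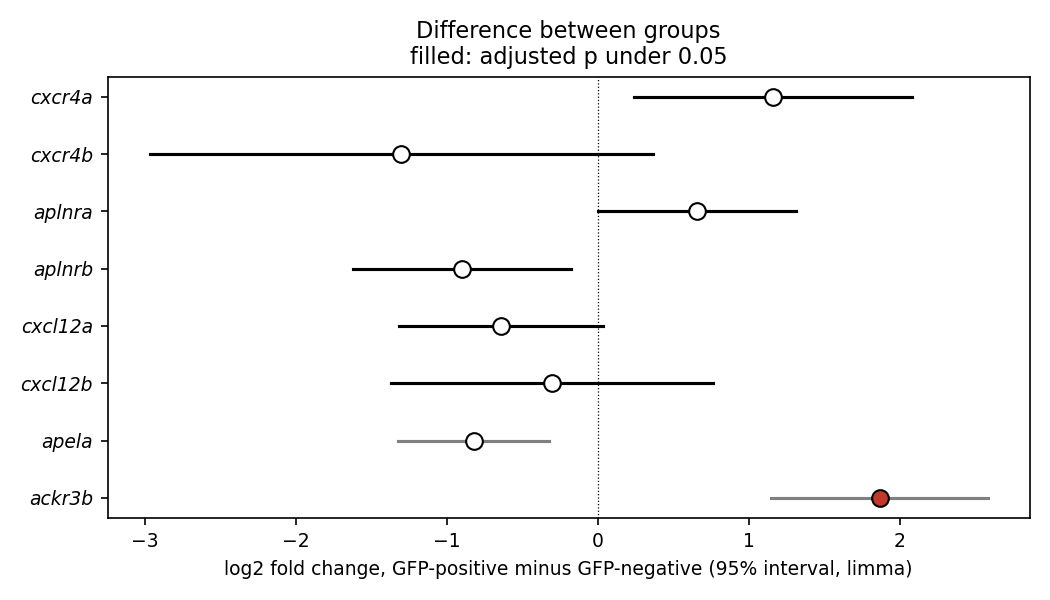
Log2 fold change of GFP-positive minus GFP-negative cells with the 95% interval from limma (x axis) for the 6 genes (black lines) and for apela and ackr3b (grey lines). Only ackr3b, at 1.86, is filled as called; the receptor genes alternate in sign, with cxcr4a at 1.16 and cxcr4b at -1.30, aplnra at 0.66 and aplnrb at -0.90.

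The ratio of a paralog pair within a library hardly depends on how libraries are scaled, and gene length cancels when the ratio is compared between groups. The log2 ratio of cxcr4a to cxcr4b was 3.18, 2.55 and 1.80 in GFP-positive replicates 1, 2 and 3, and 0.96, -0.31 and -0.50 in GFP-negative replicates 1, 2 and 3. All GFP-positive ratios were above all GFP-negative ratios. The difference was 2.46 on the log2 scale, or 5.51-fold (exact permutation test, 2-sided p = 0.10, 0.15 adjusted over 3 pairs).

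The log2 ratio of aplnra to aplnrb was 1.65, 1.30 and 0.95 in GFP-positive and 0.034, -0.38 and -0.41 in GFP-negative replicates 1, 2 and 3. These groups did not overlap either, but that follows from the single genes, since neither aplnra nor aplnrb overlapped between groups. The ratio is therefore no further support for a difference. The SD of the log2 ratios was 0.35 in GFP-positive and 0.25 in GFP-negative libraries (n = 3 each). How often ratios of other gene pairs fail to overlap was not computed. The difference was 1.56, or 2.94-fold (exact permutation test, 2-sided p = 0.10, adjusted p = 0.15).

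The ligand ratio of cxcl12a to cxcl12b overlapped between groups, at -1.04, -0.64 and -0.42 in GFP-positive and -0.97, -0.17 and 0.047 in GFP-negative replicates 1, 2 and 3. The mean difference was -0.34 (exact permutation test, 2-sided p = 0.40, adjusted p = 0.40). With 3 libraries a group the smallest p this test can give is 0.10, so none of the pairs could have passed 0.05.

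Summed over both paralogs, the receptor levels overlapped between groups. The sum of cxcr4a and cxcr4b was 13310 ± 6940 normalised reads in GFP-positive and 10171 ± 5090 in GFP-negative cells, and that of aplnra and aplnrb 10769 ± 3389 and 10547 ± 2646 (SD, n = 3 each). In reads not corrected for length, cxcr4a made up 90.1%, 85.4% and 77.7% of the Cxcr4 pair in GFP-positive replicates 1, 2 and 3, and 66.0%, 44.7% and 41.4% in GFP-negative replicates 1, 2 and 3. Within the apelin receptor pair, aplnra made up 75.8%, 71.2% and 66.0%, against 50.6%, 43.4% and 42.9%. The sources used here do not give how reads that match both paralogs were counted, so their split is uncertain to that extent.

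**Figure D3:**
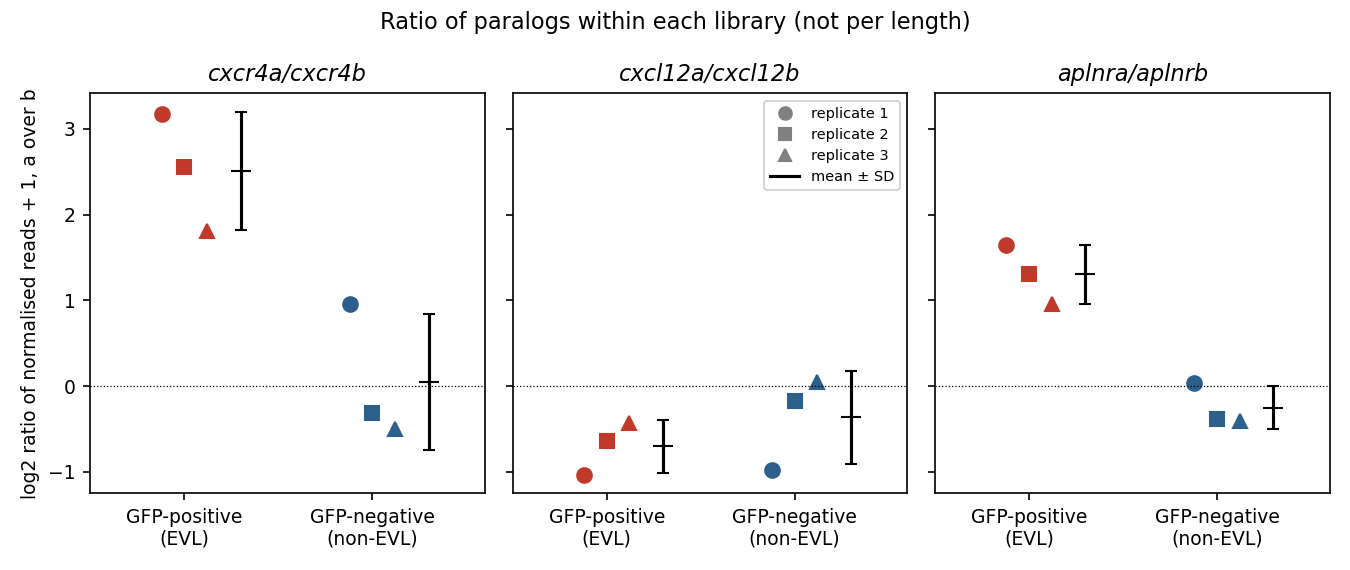
Log2 ratio of paralog a over paralog b (y axis, normalised reads + 1, not per length) in each library for the Cxcr4, Cxcl12 and apelin receptor pairs, with the mean and SD of each group in black. For both receptor pairs the lowest GFP-positive ratio (1.80 and 0.95) is above the highest GFP-negative ratio (0.96 and 0.034), and the ligand ratios overlap.

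Among partners of these genes, the scavenger receptor gene ackr3b rose in GFP-positive cells. It was the 1 tested of 3 matched scavenger and atypical receptor genes, the other two being below the minimum level. Its product takes up and clears Cxcl12a, which shapes the chemokine's distribution in tissue. It had 4843, 11942 and 8641 normalised reads in GFP-positive and 2611, 1989 and 1992 in GFP-negative replicates 1, 2 and 3. The groups did not overlap, and the log2 fold change was 1.86, or 3.64-fold (SE 0.31; limma, adjusted p = 0.00726).

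The gene apela encodes the early ligand of the apelin receptors. It had 5548, 3860 and 6756 normalised reads in GFP-positive and 8589, 9004 and 10393 in GFP-negative replicates 1, 2 and 3. All GFP-positive libraries were below all GFP-negative ones, but the log2 fold change of -0.82 (SE 0.22) just missed the threshold (limma, adjusted p = 0.0526). It passed in DESeq2 (adjusted p = 0.0300) and not in edgeR (0.0803). It also passed without GFP-positive replicate 3 (-1.01; limma, adjusted p = 0.0300), and with no filter (0.0459), library size alone (0.0189), upper quartile scaling (0.0262) or library size outside the most abundant gene (0.0316). Of the 6 fits with 1 library left out, only that 1 passed, and the others gave adjusted p from 0.0893 to 0.182 (limma). With a pseudocount of 5 it did not pass (limma, adjusted p = 0.05004). The later ligand gene apln had at most 26.3 normalised reads in any library and was not tested.

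The 6 lists of other pathway genes and guidance systems held 115 matched genes, of which 66 were tested. Of these 12 were higher and 0 lower (limma), or 18.2% called against 9.47% of all genes tested. The 12 include ccl25b and ccl27a, which reached the minimum only through the GFP-positive libraries. The median log2 fold change of the 66 was -0.04, beside -0.06 for all genes tested.

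Most other chemokine receptors and chemokines were below the minimum level. Of 16 receptor genes matched, 14 were, and 5 had no read in any library. Of the 2 tested, the gene listed as si:dkey-269d20.3, whose identifier carries the symbol cxcr3.3, had 188, 207 and 132 normalised reads in GFP-positive and 27.8, 38.6 and 58.5 in GFP-negative replicates 1, 2 and 3, so it rose 4.26-fold (limma, adjusted p = 0.0134). The other, ccr6a, stood at a log2 fold change of 0.27 (limma, adjusted p = 0.824). Without GFP-positive replicate 2, si:dkey-269d20.3 lost its call (limma, adjusted p = 0.0623).

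Of 21 chemokine genes matched, 17 were below the minimum, and 2 of the 4 tested were higher, against 8.80% of all genes tested. Both were at very low levels. They reached the minimum only through the GFP-positive libraries, so that filter fixed their direction. The count of 2 of 4 is therefore no support for a difference. The gene ccl25b had 71.1, 15.5 and 28.2 normalised reads in GFP-positive replicates 1, 2 and 3 and no read in any GFP-negative library, so it was at least 15.4-fold higher, against a floor of 3 reads per library (limma, adjusted p = 0.00816). The gene ccl27a had 73.8, 32.1 and 15.8 against 0, 0 and 4.23 (limma, adjusted p = 0.0270). Without GFP-positive replicate 1, chosen as an alternative after seeing the data, the bound for ccl25b was 8.77-fold and its call was lost (limma, adjusted p = 0.0599). That of ccl27a was lost when GFP-positive replicate 1 (0.126) or replicate 2 (0.0857) was left out, when GFP-negative replicate 1 (0.0643) or replicate 2 (0.0846) was, and in edgeR (0.0566). The uncalled ccl19a.1 and cxcl18b stood at log2 fold changes of -0.36 and -0.30 (limma, adjusted p = 0.692 and 0.872).

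Of all genes tested, 8.80% were higher and 9.47% were called in either direction. Genes for G proteins and regulators of these receptors were higher in 7 of 34 tested and lower in 0, or 20.6% called. Those with the smallest adjusted p were rgs4, rgs2, grk5 and gnao1a. The RGS proteins speed the switching off of G protein alpha subunits. The gene rgs4 rose from 228 ± 32.5 to 2499 ± 945 normalised reads (SD, n = 3 each), a log2 fold change of 3.39 (SE 0.29; limma, adjusted p = 0.000647), and rgs2 had a log2 fold change of 4.06 (adjusted p = 0.00657). The receptor kinase gene grk5 rose by 4.02 and gnao1a, which encodes the alpha subunit of Go, by 2.82 on the log2 scale (limma, adjusted p = 0.0142 and 0.0167). GFP-positive replicate 1 was the highest library for each of these 4 genes. Without it, grk5 stood at 3.097 and rgs2 at 3.42 on the log2 scale. The call of grk5 was lost without GFP-negative replicate 3 (limma, adjusted p = 0.0583) and that of gnao1a without GFP-negative replicate 2 (0.0608).

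The most abundant genes of this list among those not called were rac1a and gnb1b, so their small differences follow in part from that choice. The GTPase gene rac1a had a log2 fold change of 0.12 (95% interval -0.27 to 0.51; limma, adjusted p = 0.723) and the G protein beta gene gnb1b one of -0.044 (-0.35 to 0.26; limma, adjusted p = 0.883). The direction of rac1a turned with each of the 3 other scalings tried, and that of gnb1b in edgeR with TMM.

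Of 24 tested genes in other gastrulation guidance systems, 1 was higher and 0 were lower, or 4.2% called against 9.47% of all genes tested. This was the gene listed as wnt11, whose identifier carries the symbol wnt11f2 and which encodes a noncanonical Wnt ligand. It had 4349 ± 691 against 2651 ± 161 normalised reads (SD, n = 3 each; log2 fold change 0.70; limma, adjusted p = 0.0333). Its call was lost without any 1 of GFP-positive replicates 2 and 3 and GFP-negative replicates 1, 2 and 3 (limma, adjusted p from 0.0558 to 0.140), and with each of the 3 other scalings (limma, adjusted p from 0.115 to 0.1498). The Frizzled receptor genes fzd7b and fzd7a, the most abundant of the uncalled genes, stood at -0.15 and -0.028 on the log2 scale (limma, adjusted p = 0.678 and 0.961), and that of fzd7a turned positive in edgeR with TMM.

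**Figure D4:**
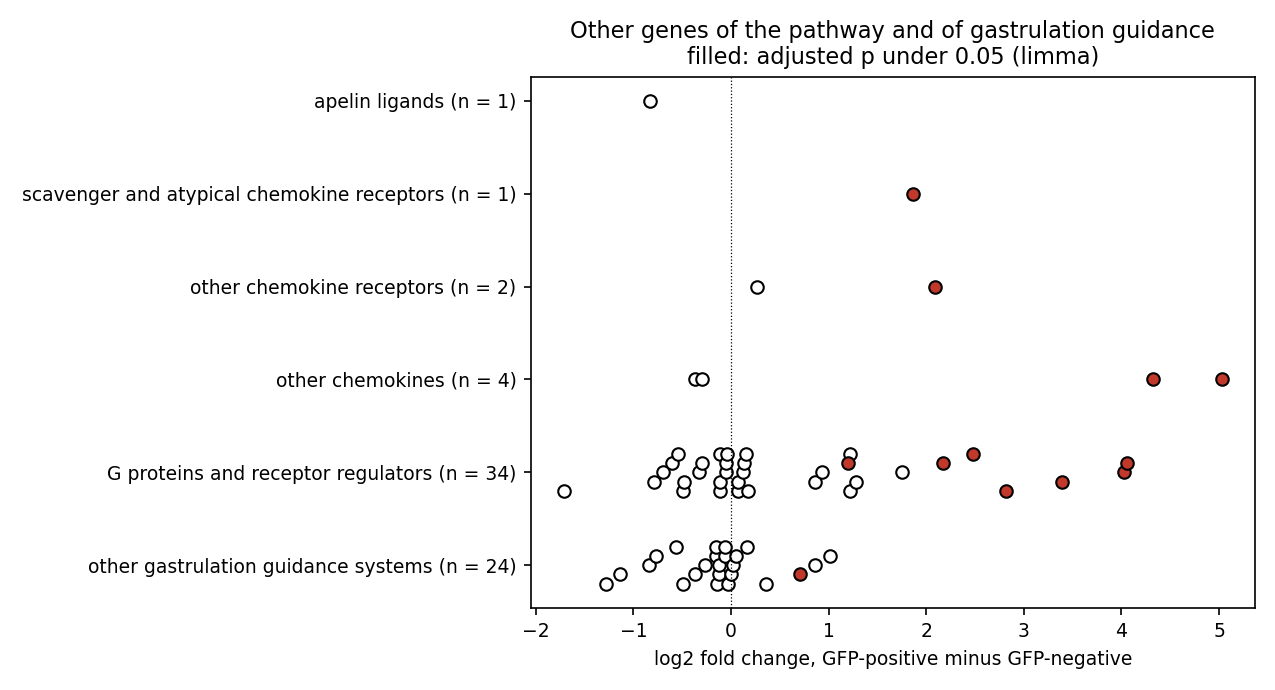
Log2 fold change of GFP-positive minus GFP-negative cells (x axis) for the tested genes of 6 lists, 1 point per gene, filled where the adjusted p was under 0.05 (limma). The 12 filled points all lie above 0, 7 of them among the 34 G protein and regulator genes. For ccl25b and ccl27a the direction was fixed by the filter, which they passed only through GFP-positive libraries.

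Marker lists were also read for the cell types in which these receptors are known. Among 7 endoderm genes, GFP-positive cells had 3 higher and 0 lower, namely sox32 (5.89-fold), sox17 (6.28-fold) and foxa2 (3.23-fold; limma, adjusted p = 0.00117, 0.00158 and 0.0162). The share of higher genes among all tested was 8.80%. The 4 not called differed in direction. Their log2 fold changes were 1.03 for gata5, 1.43 for foxa1, 0.027 for foxa3 and -0.86 for mixl1 (limma, adjusted p = 0.133, 0.383, 0.967 and 0.597). The genes sox32 and sox17 mark endoderm and also the dorsal forerunner cells, which arise from the dorsal surface layer. The summed level of the 7 genes was 27252 to 49620 normalised reads in GFP-positive and 9370 to 14044 in GFP-negative libraries. In GFP-positive libraries most of that sum came from sox32 and foxa2. As for cxcr4a and aplnra, the sum was highest in GFP-positive replicate 2. The part of these cells in the values of cxcr4a and aplnra was not tested. The call of foxa2 was lost without GFP-negative replicate 2 (limma, adjusted p = 0.0708) or 3 (0.0667).

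Germ cell genes were lower in 3 of 10 tested and higher in 0, against 0.676% and 8.80% of all genes tested. Those called were dnd1 (log2 fold change -3.98), nanos3 (-3.15) and tdrd7a (-2.72; limma, adjusted p = 0.00645, 0.0128 and 0.0211). Of the 7 not called, ddx4 stood at a log2 fold change of -0.031 and buc at 0.41 (limma, adjusted p = 0.978 and 0.713). The rest lay from -1.76 (ca15b) to -0.39 (tdrd6). The summed level of the 11 matched genes was 2230 to 4721 normalised reads in GFP-positive and 5499 to 8319 in GFP-negative libraries. Among the 10 tested genes, the lowest GFP-negative library was replicate 3 for dnd1 (206 normalised reads), nanos3, tdrd7a, ca15b and dazl. It was replicate 1 for ddx4, piwil1, piwil2, tdrd6 and buc, and also for cxcr4b. The part of germ cells in the values of cxcr4b was not tested. Without GFP-negative replicate 3, dnd1 stood at -4.65 and nanos3 at -3.76 on the log2 scale. The call of nanos3 was lost without GFP-negative replicate 2 (limma, adjusted p = 0.0568), and tdrd7a lost its call when GFP-positive replicate 1 (0.0669), GFP-positive replicate 3 (0.0525) or GFP-negative replicate 2 (0.0733) was left out.

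Against 0.676% lower and 8.80% higher among all genes tested, mesoderm and margin genes were lower in 1 of 27 tested and higher in 0. This was the homeobox gene eve1, at a log2 fold change of -1.48 (limma, adjusted p = 0.0389). The summed level of the 29 matched genes was 45764, 87189 and 83836 normalised reads in GFP-positive replicates 1, 2 and 3 and 90375 to 95434 in GFP-negative libraries. GFP-positive replicate 1, the lowest here, was also the lowest GFP-positive library for cxcr4a, cxcr4b, cxcl12a, aplnra and aplnrb, and the highest for the enveloping layer sum. This library was not the lowest for cxcl12b, and how often it was lowest among all genes tested was not computed. The part of mesoderm in the values of the receptor genes was not tested. The call of eve1 was lost in edgeR (adjusted p = 0.0613) and in limma when GFP-positive replicate 1 (0.0834), GFP-positive replicate 2 (0.0943), GFP-negative replicate 2 (0.1501) or GFP-negative replicate 3 (0.144) was left out.

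**Figure D5:**
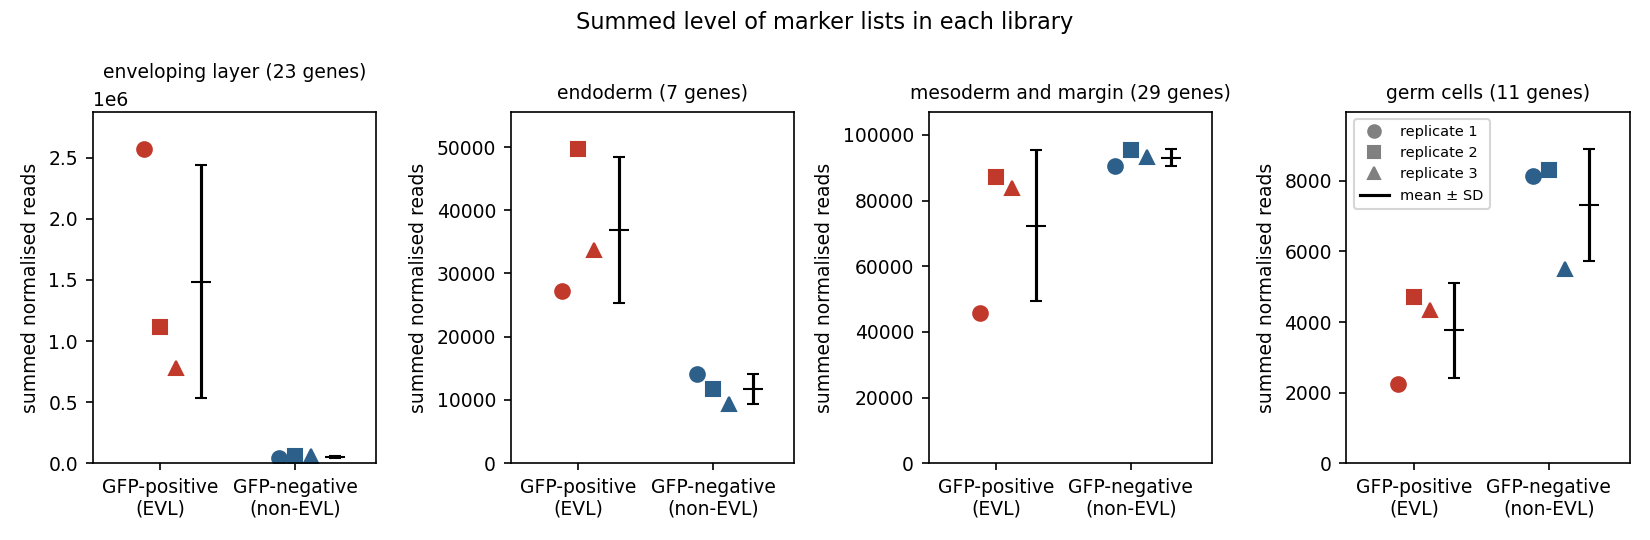
Summed normalised reads of 4 marker lists (y axes, from 0, each with its own scale) in each library, with the mean and SD of each group in black. The endoderm sums are all higher in GFP-positive libraries (lowest 27252, against at most 14044), and the mesoderm and germ cell sums are all lower.

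The genes whose log2 level over the 6 libraries was most like that of each receptor or ligand gene were sought among 8997 tested genes with a mean of at least 100. With 6 libraries that share their groups, high correlations are easily reached and are given as a description only. The endoderm regulator gene gata5 was the most like aplnra (Pearson r = 0.983), followed by abca1b (0.974) and nipblb (0.974). The level of gata5 was 2646, 6108 and 3593 normalised reads in GFP-positive and 2680, 2031 and 1245 in GFP-negative replicates 1, 2 and 3. Its highest and lowest library were the same as for aplnra, which is likely for a gene chosen by its correlation with aplnra. For cxcr4b the most alike were mcm6l (0.998), sde2 (0.996) and gnai2b (0.996), which encodes an inhibitory G protein alpha subunit. For cxcr4a they were higd1a (0.982), mt-nd4l (0.981) and the gene listed as PLEKHG5 (2 of 2) (0.979). For aplnrb they were gtf2f2a (0.996), ccdc94 (0.995) and mapre1b (0.994). Those of cxcl12a were mapkapk5 (0.992), smarcb1a (0.991) and tmem67 (0.988). Those of cxcl12b were mknk2b (0.991), ganabb (0.983) and the gene listed as LSP1 (2 of 2) (0.976).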

How the data were processed

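The deposited files hold 1 normalised signal value per gene and library, made by the authors from reads per gene. Per the submitters' processing notes, Trim Galore, STAR 2.6.1d, featureCounts and DESeq2 were used with danRer10. The role of each tool, the annotation release, the use of strand and the handling of multiply matching reads are not given in the sources used here. Per the labels, libraries were SMARTseq2 with single-end reads of 50 nt, so reads carry no molecular identifiers. Dividing each column by its smallest step gave whole reads for 100% of values within 0.01 read.

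Of 31953 genes, 6090 had no read, and 15971 reached the minimum (10 or more in 3 or more libraries) and were tested. Group was the only term in limma on log2(value + 1), with a variance trend and robust shrinkage, and genes were called at a Benjamini-Hochberg adjusted p under 0.05. Adding 1 understates fold changes of low genes. Fits ran in R 4.3.3 with limma 3.58.1. As alternatives, DESeq2 1.42.0 and edgeR 4.0.16 ran on the recovered reads, and edgeR called 1463 genes. The script was tested on simulated data. Paralog ratios were compared with an exact permutation test. Alternatives were other scalings, a pseudocount of 5, no filter, each library left out, and the replicate number as a block.

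Members and gene lists were chosen with earlier results of these data known. Lists were matched by the files' gene names or by the symbol given for an identifier. Besides the members, named genes were up to 4 called genes per list by smallest adjusted p, up to 2 of the most abundant uncalled ones, and the 3 most alike genes per member. The remark that a library was highest or lowest was made after values were seen. No sequences are shown, since none were used here, and coordinates on danRer10 were not used here.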

Additional observations from a re-analysis of the deposited data

How the results depend on the processing

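The count of genes lower in GFP-positive cells was the least stable. It was 108, and became 1191 with library size alone, 269 with upper quartile scaling, 174 with library size outside the most abundant gene, 54 in edgeR, 327 in DESeq2 and 14 to 77 with 1 library left out, while the count of higher genes stayed within 1.5 times of 1405. With library size alone 52.5% of called genes were higher, against 92.9%. Of the 6 genes, 0 were called higher, but 1 in DESeq2 and 0 to 1 with 1 library left out. None was called lower, but 1 was with library size alone. Of the pathway genes, the 12 higher became 7 to 10 with 1 library left out. The 0 lower became 5 with library size alone, 2 with upper quartile scaling, 2 with library size outside the most abundant gene, 2 in DESeq2, 1 with no filter and 0 to 1 with 1 library left out. The paralog differences kept their direction with a pseudocount of 5 and with 1 library left out, at 2.13 to 2.92 for cxcr4a/cxcr4b, 1.38 to 1.73 for aplnra/aplnrb and -0.64 to -0.13 for cxcl12a/cxcl12b. The cause of these shifts was not tested.

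With the replicate number as a block, 1573 genes were higher and 279 lower. Of the 6 genes, 1 was then higher (cxcr4a, limma adjusted p = 0.00502) and 1 lower (cxcr4b, adjusted p = 0.00352), and of the pathway genes 1 was lower (apela, adjusted p = 0.0256). GFP-positive cxcr4b was 41.5%, 36.4% and 43.9% of the GFP-negative library with the same number. The labels do not say that numbers pair the samples. Deviations from the group mean correlated at 0.259, 0.328 and 0.075 between libraries numbered 1, 2 and 3, and each library correlated best with its own number, which is a hint from the data only.

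Among single genes, some uncalled log2 fold changes changed sign. With 1 library left out the value ranged from -0.70 to 0.32 for cxcl12b, -0.21 to 0.63 for ccr6a, -0.71 to 0.36 for cxcl18b, -0.21 to 0.19 for fzd7a, -0.23 to 0.0015 for fzd7b, -0.12 to 0.017 for gnb1b and -0.038 to 0.24 for rac1a. In edgeR it was 0.016 for fzd7a and 0.00035 for gnb1b. With library size alone it was -0.032 for ccr6a and -0.18 for rac1a, and rac1a stood at -0.059 under upper quartile scaling and -0.047 under library size outside the most abundant gene.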

Other observations

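Marker lists of 2 other cell sources were tested as well. Of 11 matched genes of the yolk syncytial layer, 7 were below the minimum level and 1 of 4 tested was higher in GFP-positive cells. This was gata3 (log2 fold change 2.67, limma adjusted p = 0.00808), a gene that surface ectoderm also expresses. The cell source of the gata3 reads was not tested. The genes mxtx1 and mxtx2 of this list had at most 28.2 normalised reads in any library. Of 10 leukocyte genes 6 were below the minimum, mpeg1.1 had no read in any library, and 1 of 4 tested was higher, lcp1 (log2 fold change 4.77; limma, adjusted p = 0.000647). The cell source of the lcp1 reads was not tested. The 3 not called were coro1a, ptprc and cybb. Their log2 fold changes were 0.81, 0.53 and 0.31 (limma, adjusted p = 0.760, 0.727 and 0.634). For both lists, the share of higher genes among all tested was 8.80%.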
